A study of Mus musculus with 4 samples.

Results

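The replication-dependent histone genes were chosen as every non-control probe whose gene name on the array starts with Hist1h, Hist2h, Hist3h or Hist4h. They came to 36 of the 21329 named genes of the array, read by 46 probes: 6 genes of the linker histone H1, 11 of H2A, 10 of H2B, 3 of H3 and 6 of H4. Of these, 30 had a probe well above background and were tested, among 13587 tested genes in all. Each gene is represented by its brightest tested probe. The label of the group is that of the gene names. Some members (Hist1h1c, Hist1h2bc, Hist2h2be) are known to make polyadenylated transcripts too.

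The arrays compared pools of whole mouse embryos homozygous for Btaf1 V1330M, a missense allele induced with the mutagen ENU that the study's design text also writes as Btaf1-/-, with pools of Btaf1+/+ embryos. Every mouse was a hybrid of C57BL/6J and FVB/NJ with an FVB share of 50 to 90%. Embryos of 3 to 5 somites were taken where possible, which is about the time when the heart tube and the first somites form. There were 2 sets of pools: an age_matched set, which preferred litter mates and tolerated a gap of up to 5 somites, and a stage_matched set, paired by somite number. Each set was hybridised on 2 arrays, with the mutant in Cy5 on the first and in Cy3 on the second, so n = 2 sets and each array carried both genotypes. The number of embryos per pool is not given in the sources used here, nor is it said whether yolk sacs were kept or whether the sets shared embryos. BTAF1 uses ATP to take TBP, the factor that binds TATA boxes, off DNA.

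Histone genes of this class lie in clusters and are transcribed mainly in S phase, when new DNA has to be packed into nucleosomes made of H2A, H2B, H3 and H4, with H1 bound between them. Their mRNAs usually end in a stem-loop bound by SLBP in place of a poly(A) tail. The labelling kit named in the labels is known to start from oligo-dT, so the signal depends on transcripts with a poly(A) tail or with internal runs of A, and the ratios below need not stand for all histone mRNA. In pools of whole embryos, fewer cells of a type and less RNA per cell cannot be told apart.

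The probes are shown first because several read almost the same letters, so that a ratio often belongs to a group of near-identical genes. By the letters of each probe, 26 of the 46 probes lay in coding sequence and 20 outside it, an assignment made after the values were known. Of the 22 tested genes with a coding probe, 13 had a probe that shared 17 or more bases in a row with a probe of another histone gene, and all 12 such pairs lay within a histone type (0 between types). The 10 probes below are given 5′ to 3′, with the longest run shared with another histone gene's probe in capitals. The Hist1h4d and Hist1h4f probes share 50 bases, and those of Hist1h2bm and Hist1h2bk share 52. The Hist1h1b and Hist1h1d probes have no shared run of that length, and the best match between them was 31 of 55 bases.
Hist1h1b probe: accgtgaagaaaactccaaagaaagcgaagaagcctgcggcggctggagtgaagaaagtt
Hist1h1d probe: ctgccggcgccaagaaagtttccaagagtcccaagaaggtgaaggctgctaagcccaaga
Hist1h2aa probe: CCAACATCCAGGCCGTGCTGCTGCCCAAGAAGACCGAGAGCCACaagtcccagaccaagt
Hist1h2af probe: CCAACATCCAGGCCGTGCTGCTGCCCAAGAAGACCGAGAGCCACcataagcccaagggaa
Hist1h2bm probe: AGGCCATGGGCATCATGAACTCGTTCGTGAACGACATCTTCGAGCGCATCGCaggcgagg
Hist1h2bk probe: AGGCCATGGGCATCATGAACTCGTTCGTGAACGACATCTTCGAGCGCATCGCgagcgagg
Hist1h4d probe: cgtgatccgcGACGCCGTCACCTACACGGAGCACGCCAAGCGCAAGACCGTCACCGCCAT
Hist1h4f probe: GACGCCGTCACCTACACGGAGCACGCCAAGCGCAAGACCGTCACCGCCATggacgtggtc
Hist2h4 probe: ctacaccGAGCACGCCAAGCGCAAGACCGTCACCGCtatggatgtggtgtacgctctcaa
Hist1h4a probe: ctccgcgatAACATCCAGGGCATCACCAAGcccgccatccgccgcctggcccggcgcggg
The Hist1h3a probe instead ends in the stem-loop that marks these mRNAs. Its last 30 bases follow, with the 16 bases of the stem-loop in capitals.
Hist1h3a, end of the probe: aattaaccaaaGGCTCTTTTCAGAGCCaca

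Mutant over wild type, 7 of 30 histone genes were lower by limma (adjusted p under 0.05 over all tested probes), or 23.3%, against 2.77% of all tested genes. They were the H1 genes Hist1h1b and Hist1h1d, the H2B gene Hist1h2ba and the H4 genes Hist1h4f, Hist1h4d, Hist1h4a and Hist2h4. None was higher (0 of 30 by limma, 4 at an unadjusted p under 0.05), against 2.14% of all tested genes. At that unadjusted p, 15 of the 30 were lower, and of all 13587 tested genes 1514 were lower and 1563 higher. All 7 lower genes had negative ratios on 4 of 4 arrays. The median log2 ratio of the 30 genes was -0.18, with -0.13 in the age_matched set and -0.29 in the stage_matched set, beside 0.02 for all tested genes. The types did not move alike. The median was -0.81 for H1, -0.61 for H4 and -0.39 for H2B, and 0.04 for H2A and 0.03 for H3. The types also differed in signal. Mean log2 signal reached 16.65 in H2A (Hist1h2af) and 15.60 in H3 (Hist2h3c1), but 13.50 at most in H1, H2B and H4 (Hist1h4f). Some H2A and H3 genes were dimmer, such as Hist2h2aa1 at 9.51 and Hist1h3a at 8.03. Of the 769 tested probes with a mean log2 signal of 14 or more, 0.52% were lower and 0.39% higher. Over all tested probes these shares were 3.14% and 1.66%. The part of signal level in the type medians was not tested. On all 4 arrays, 14 of the 30 genes had 1 sign (46.7%, 11 negative and 3 positive), against 28.5% of all tested genes. Fewer genes were lower without array age_matched replicate 1 (0), without age_matched replicate 2 (4), without background correction (0), when dim probes were kept (1) and with the mutant in Cy3 only (1).

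**Figure D1:**
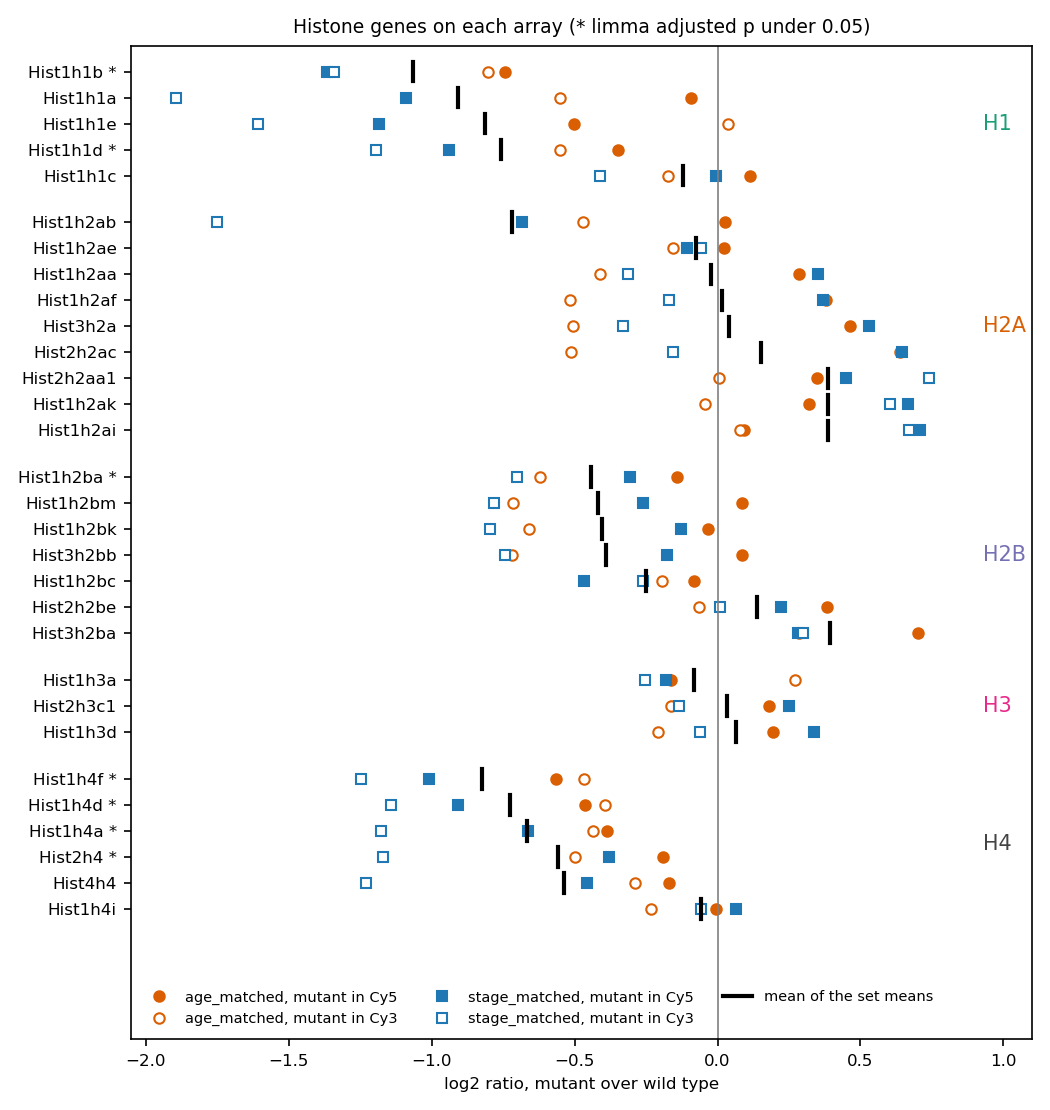
Log2 ratio of mutant over wild type (horizontal axis) of each of the 30 tested histone genes (rows, by type) on each array. Orange circles are the age_matched arrays and blue squares the stage_matched arrays, filled with the mutant in Cy5 and open with the mutant in Cy3; black bars are the mean of the set means, and asterisks mark the 7 genes lower by limma. The stage_matched squares of most H1 and H4 genes lie left of the age_matched circles, with Hist1h4i as an exception.

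H1 closes the nucleosome and folds the chromatin fibre, and the genes Hist1h1a to Hist1h1e encode its somatic subtypes. Negative ratios were found for 5 of 5 tested H1 genes, and 2 fell past the threshold. In each gene below, the array with the mutant in Cy5 is given before the array with the mutant in Cy3. Hist1h1b (H1.5, chromosome 13, 21871923 to 21871982, mm9) read -0.74 and -0.80 on the age_matched arrays and -1.37 and -1.34 on the stage_matched arrays. All 4 values were below -0.7, and the sets did not overlap. Its mean was -1.06 ± 0.41 (SD between sets, n = 2; limma adjusted p = 0.0111), or 2.09-fold lower in the mutant. This was the lowest ratio of the 30 genes, and it stayed past the threshold in 11 of 13 alternatives, with adjusted p from 0.000689 to 0.0837.

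Hist1h1d (H1.3, chromosome 13, 23647452 to 23647511) read -0.35 and -0.55 on the age_matched arrays and -0.94 and -1.20 on the stage_matched arrays. Again the stage_matched arrays were both lower than the age_matched arrays. On average Hist1h1d had a ratio of -0.76 ± 0.44 (SD, n = 2; limma adjusted p = 0.0275), or 1.69-fold lower. It passed in 8 of 13 alternatives.

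Hist1h1a (H1.1) and Hist1h1e (H1.4) had ratios as low but a wide gap between the sets. Hist1h1a read -0.09 and -0.55 on the age_matched arrays and -1.09 and -1.89 on the stage_matched arrays, with a mean of -0.91 ± 0.83 (SD, n = 2; limma adjusted p = 0.0611). Hist1h1e read -0.50 and 0.04 on the age_matched arrays and -1.18 and -1.61 on the stage_matched arrays, with a mean of -0.81 ± 0.82 (SD, n = 2; limma adjusted p = 0.0782). In both genes the stage_matched values were all below -1, while 1 age_matched value of each was near 0. Hist1h1c (H1.2) was the exception. It read 0.11 and -0.17 on the age_matched arrays and near 0 and -0.41 on the stage_matched arrays, with a mean of -0.12 ± 0.13 (SD, n = 2; limma adjusted p = 0.514). It was also the only tested H1 gene whose probe lay outside the coding sequence. The testis gene Hist1h1t was not well above background on any array (0 of 4 in either genotype).

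H4 pairs with H3 at the centre of the nucleosome, and its many genes encode the same protein. Negative ratios were found for 6 of 6 tested genes, and 4 fell. Hist1h4f (chromosome 13, 23643249 to 23643308) read -0.57 and -0.47 on the age_matched arrays and -1.01 and -1.25 on the stage_matched arrays, with a mean of -0.82 ± 0.43 (SD, n = 2; limma adjusted p = 0.0223), or 1.77-fold lower. Hist1h4d (chromosome 13, 23673665 to 23673724) read -0.46 and -0.39 on the age_matched arrays and -0.91 and -1.14 on the stage_matched arrays, with a mean of -0.73 ± 0.42 (SD, n = 2; limma adjusted p = 0.0294). Since their probes share 50 bases, these are hardly separate readings. A dimmer Hist1h4d probe read -0.59 (limma adjusted p = 0.0239).

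The probe of Hist1h4a (chromosome 13, 23852901 to 23852960) shares 21 bases with the dimmer Hist1h4d probe and no run of 17 or more with the brighter one. It read -0.39 and -0.44 on the age_matched arrays and -0.66 and -1.18 on the stage_matched arrays, with a mean of -0.66 ± 0.36 (SD, n = 2; limma adjusted p = 0.0298). Hist2h4, on chromosome 3 (96066953 to 96067012), read -0.19 and -0.50 on the age_matched arrays and -0.38 and -1.17 on the stage_matched arrays, with a mean of -0.56 ± 0.30 (SD, n = 2; limma adjusted p = 0.0397). Its arrays overlapped between the sets, and its probe matched that of Hist1h4f in 45 of 49 bases. Hist4h4, the single member on chromosome 6 (136752717 to 136752776), shares no run of 17 bases with the others. It read -0.17 and -0.29 on the age_matched arrays and -0.46 and -1.23 on the stage_matched arrays, and its mean of -0.54 ± 0.43 did not pass (SD, n = 2; limma adjusted p = 0.0707). Hist1h4i, the only H4 gene read outside the coding sequence, had a mean of -0.06 ± 0.09 (SD, n = 2; limma adjusted p = 0.767).

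H2B forms a dimer with H2A at the face of the nucleosome. Of 7 tested H2B genes, 5 had negative ratios and 1 fell. That gene was Hist1h2ba (chromosome 13, 24025811 to 24025870), known as the H2B of testis and oocyte. It read -0.14 and -0.62 on the age_matched arrays and -0.31 and -0.70 on the stage_matched arrays, with a mean of -0.44 ± 0.09 (SD, n = 2; limma adjusted p = 0.0395), or 1.36-fold lower. The sets overlapped, and the lower value of each set came with the mutant in Cy3. Only 4 of its 13 alternatives passed. Over 40 overlapping bases its probe matched that of Hist1h2bk in 35, so it may also read other H2B transcripts.

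The 4 genes with a coding H2B probe lay close together, with means from -0.44 to -0.39. The Hist1h2bk probe matched that of Hist1h2bm in 58 of 60 bases and that of Hist3h2bb in 55 of 58. The values of Hist1h2bk, Hist1h2bm and Hist3h2bb are thus hardly separate readings. Hist1h2bk read -0.03 and -0.66 on the age_matched arrays and -0.13 and -0.79 on the stage_matched arrays, with a mean of -0.40 ± 0.08 (SD, n = 2; limma adjusted p = 0.0505). A dimmer Hist1h2bk probe had a mean of -0.56 (limma adjusted p = 0.035). Hist1h2bm and Hist3h2bb had means of -0.42 (limma adjusted p = 0.0523) and -0.39 (limma adjusted p = 0.0583). RefSeq gives the array names Hist3h2bb and Hist3h2ba the same current symbol, H2bu2. Their probes lie at different places on chromosome 11, however. That of Hist3h2bb is at 58767697 to 58767756 on the minus strand, and that of Hist3h2ba at 58762948 to 58763007 on the plus strand. The probe named Hist3h2ba, outside the coding sequence, read 0.70 and 0.29 on the age_matched arrays and 0.28 and 0.30 on the stage_matched arrays, with a mean of 0.39 ± 0.14 (SD, n = 2; limma adjusted p = 0.062). All 4 of its arrays were positive, and 3 of 13 alternatives passed.

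H2A is the most diverse of the core histones, and its genes spanned both signs. Of 9 tested H2A genes, 6 had positive and 3 negative ratios, and none passed (0 of 9 by limma; at an unadjusted p under 0.05, 3 higher and 1 lower). The lowest was Hist1h2ab, whose probe lies outside the coding sequence. It read 0.03 and -0.47 on the age_matched arrays and -0.68 and -1.75 on the stage_matched arrays, with a mean of -0.72 ± 0.70 (SD, n = 2; limma adjusted p = 0.0778). Its sets did not overlap, and only the age_matched array with the mutant in Cy5 was above 0. The highest was Hist1h2ai, which read 0.09 and 0.08 on the age_matched arrays and 0.71 and 0.67 on the stage_matched arrays, with a mean of 0.39 ± 0.43 (SD, n = 2; limma adjusted p = 0.15). In Hist1h2ai the stage_matched arrays were both above the age_matched ones. Hist1h2ak read 0.32 and -0.04 on the age_matched arrays and 0.67 and 0.60 on the stage_matched arrays, and Hist2h2aa1 read 0.35 and 0.01 on the age_matched arrays and 0.45 and 0.74 on the stage_matched arrays. Both had means of 0.39 as well (limma adjusted p = 0.12 and 0.101), and the Hist1h2ak probe matched that of Hist1h2ai in 55 of 60 bases.

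Several H2A probes changed sign with the dye. Hist2h2ac read 0.64 with the mutant in Cy5 and -0.51 with the mutant in Cy3 in the age_matched set, and 0.64 and -0.16 in the stage_matched set. Hist1h2af read 0.38 and -0.52 on the age_matched arrays and 0.37 and -0.17 on the stage_matched arrays. Hist1h2aa and Hist3h2a likewise changed sign with the dye in both sets, as did the H3 genes Hist2h3c1 and Hist1h3d. These were 6 of 30 histone genes (20%), against 24.6% of all tested genes, a share near that of the whole array. In 21 of 30 histone genes (70%), the ratio was higher with the mutant in Cy5 than in Cy3 in both sets. That share was not counted over all tested genes. With the mutant in Cy5 only, type medians were -0.08 for H2B, 0.40 for H2A, 0.21 for H3, -0.64 for H1 and -0.42 for H4. In Cy3 only they were -0.66, -0.34, -0.13, -0.87 and -0.79 in the same order. A second, dimmer Hist1h2af probe read 0.35 and -0.07 on the age_matched arrays and 0.75 and 0.42 on the stage_matched arrays, with a mean of 0.37 against 0.02 for the brightest. That gap of 0.35 was the widest between probes of a gene, over the 5 genes with several tested probes.

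**Figure D2:**
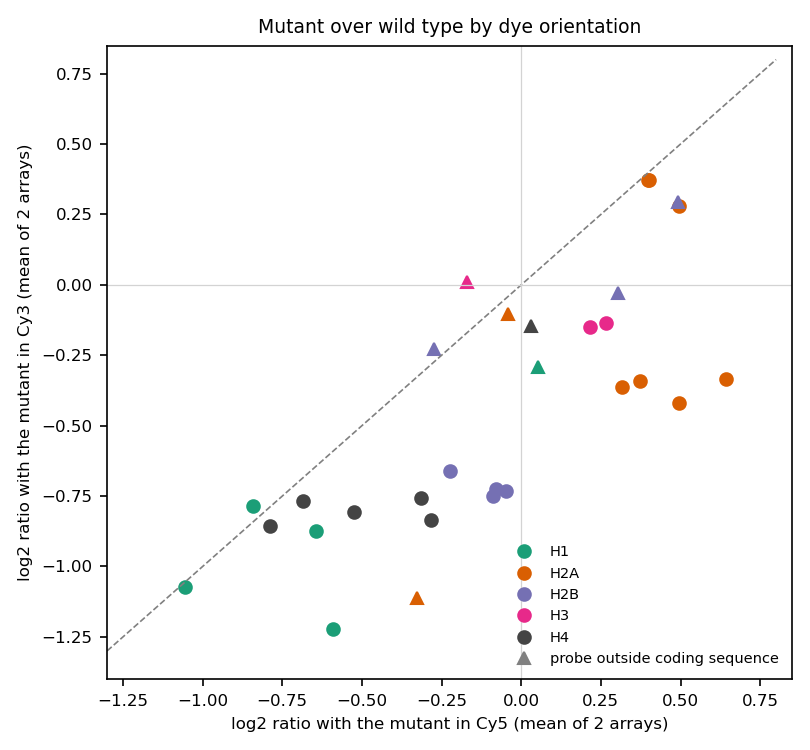
Log2 ratio of mutant over wild type of the 30 tested histone genes with the mutant in Cy5 (horizontal axis) and with the mutant in Cy3 (vertical axis), each the mean of an age_matched and a stage_matched array. Colours give the histone type, triangles are probes outside the coding sequence, and the dashed line marks equal values. H1 and H4 genes with a coding probe lie below 0 on both axes, while 4 H2A and 2 H3 genes with a coding probe lie right of 0 on the horizontal axis and below 0 on the vertical axis.

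The 3 H3 genes had ratios near 0. Hist1h3d, the highest, read 0.19 and -0.21 on the age_matched arrays and 0.34 and -0.06 on the stage_matched arrays, with a mean of 0.07 ± 0.10 (SD, n = 2; limma adjusted p = 0.733). Hist1h3a, the lowest and the gene whose probe ends in the stem-loop, read -0.16 and 0.27 on the age_matched arrays and -0.18 and -0.25 on the stage_matched arrays, with a mean of -0.08 ± 0.19 (SD, n = 2; limma adjusted p = 0.696). None of the 3 passed at an unadjusted p under 0.05 either (0 in each direction).

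Probes in coding sequence and outside it were also set side by side. The 22 tested genes with a coding probe held all 7 lower genes and had a median of -0.41, and the 8 with a probe outside had 0 lower genes and a median of -0.08. Within H1 the medians were -0.86 over 4 coding probes and -0.12 for the other, and within H4 they were -0.66 over 5 coding probes and -0.06 for the other. H2B had -0.41 over 4 coding probes and 0.14 over 3 outside. In H2A and H3 the order was the other way, with 0.15 over 7 coding probes and -0.40 over 2 outside in H2A, and 0.05 over 2 coding probes and -0.08 for the other in H3. With 1 to 3 genes of a type read outside, the gene and the place of its probe cannot be told apart. The coding probes were richer in G and C, at 45% to 73.3%, against 35% to 45% outside. Over all 271 tested probes of the array with 60% or more G and C, the median was -0.01 and 3.32% were lower. The 11 untested histone probes also lay outside the coding sequence (11 of 11), and their genes' mean log2 signal ran from 6.23 to 6.58 where no other probe was tested. These 6 genes were Hist1h1t, Hist1h2ac, Hist1h2al, Hist1h2be, Hist1h2bp and Hist2h2bb. Hist1h2ae was just inside the filter, since it was well above background on 4 arrays in wild type but on 3 in the mutant.

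The second comparison sets the age_matched set against the stage_matched set. By limma on the 4 arrays, 8 of 30 histone genes had a more positive ratio in the age_matched set (26.7%, against 1.38% of all tested genes) and 1 a more negative one (3.33%, against 0.729%). Among all tested probes of the array with 60% or more G and C, 9.23% (25 of 271) were more positive in the age_matched set, and 3 of the 8 histone probes (Hist1h4f, Hist1h4d and Hist4h4) have 60% to 66.7% G and C. The part of base composition was not tested. The 8 were Hist1h1a, Hist1h1e, Hist1h1d and Hist1h1b of H1, Hist1h2ab of H2A, and Hist1h4f, Hist4h4 and Hist1h4d of H4. In each of them the ratio was negative in both sets and nearer to 0 in the age_matched set. The difference was largest for Hist1h1a, at 1.17 ± 0.17 (age_matched minus stage_matched; SE, limma adjusted p = 2.17e-07), and for Hist1h1e, at 1.16 ± 0.18 (SE; limma adjusted p = 3.97e-07). Hist1h2ai differed the other way, at -0.60 ± 0.17 (SE; limma adjusted p = 0.0325), with its positive ratio nearer to 0 in the age_matched set. Of the 20 genes with negative means, 18 were lower in the stage_matched set.

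The error of these differences comes from dye-exchanged arrays of the same pools and holds no variation between embryos. It was nearly alike for all genes (SE 0.17 to 0.18), so a call follows mainly the size of the difference. None of the 9 calls held without a dye term, without background correction or with median centring (0 each, with 9, 12 and 3 at an unadjusted p under 0.05). The loss was not particular to the histone genes. Over all tested probes, the main fit called 352 more positive and 155 more negative in the age_matched set. Those settings called 0, 0 and 1 in the same order.

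**Figure D3:**
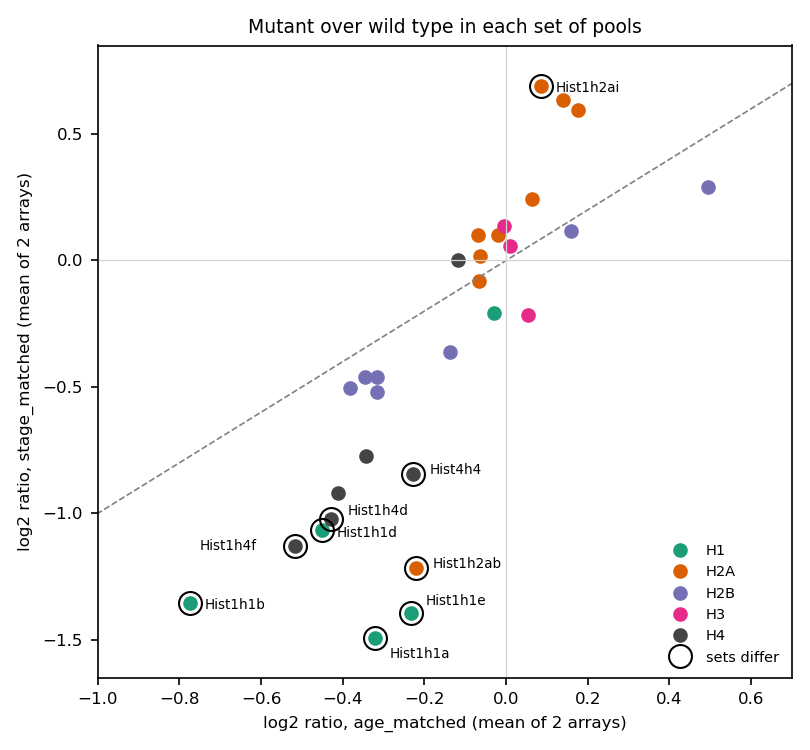
Log2 ratio of mutant over wild type of each tested histone gene in the age_matched set (horizontal axis) and the stage_matched set (vertical axis), each the mean of 2 arrays. Colours give the type, rings the 9 genes whose sets differ by limma, and the dashed line equal ratios. H1 and H4 genes fall below the line except Hist1h4i, with Hist1h1a at -0.32 and -1.49, and Hist1h2ai lies above it at 0.09 and 0.69.

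Along chromosome 13, where 21 of the tested genes lie and 17 had negative ratios, neighbours often differed. The probes of Hist1h2ak (0.39) and Hist1h1b (-1.06) are 26.2 kb apart. Hist1h2ai was not placed, since its probe's listed position lies on the other strand from the RefSeq gene, the 1 such case among 25 genes, and the position and the gene do not match. The probes of Hist1h4a (-0.66) and Hist1h3a (-0.08) are 795 bases apart, and those of Hist1h3a and Hist1h1a (-0.91) are 2.07 kb apart. Hist1h2ba (-0.44) and Hist1h2aa (-0.02) run in opposite directions with 788 bases between their probes. Hist1h4f (-0.82) and Hist1h1d (-0.76), 4.14 kb apart, had like values. These are differences between probes, and they were not tested.

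**Figure D4:**
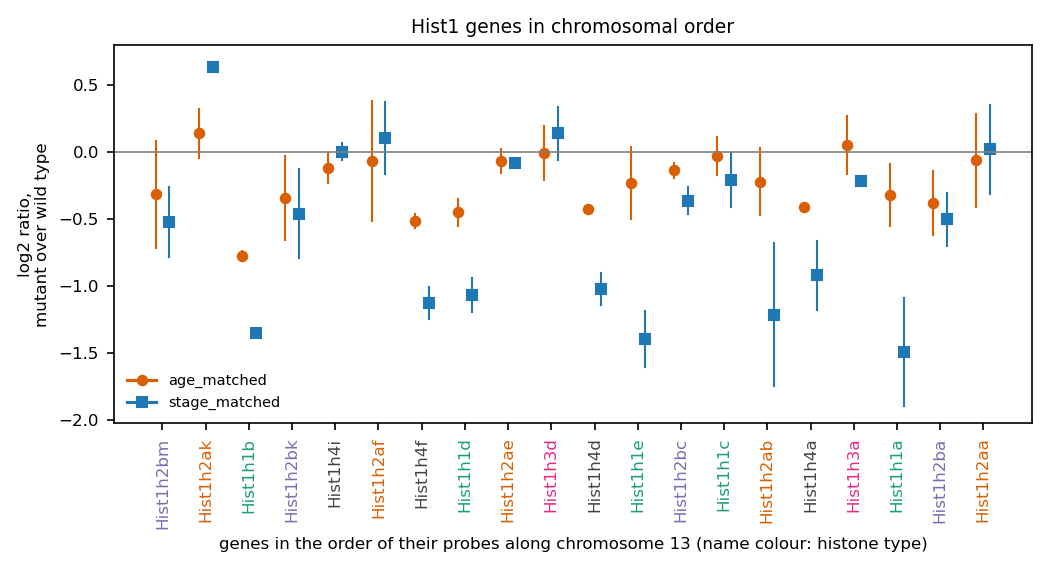
Log2 ratio of mutant over wild type (vertical axis) of 20 tested Hist1 genes, all but Hist1h2ai, in the order of their probes along chromosome 13 (horizontal axis, not to scale). Orange circles are the age_matched and blue squares the stage_matched set means, with lines joining the 2 arrays of a set; name colours give the type. Genes of H1 and H4 lie below their H2A and H3 neighbours at several places.

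Since BTAF1 acts on TBP, the promoters were searched for the TATA box (TATAAA) and for 3 motifs of histone promoters: CCAAT, the octamer (ATTTGCAT) of H2B promoters and the AAACACA box of H1 promoters. The window was 250 bases before to 50 bases after the start of the gene, on both strands, and no motif contains another. The promoter sequences are from RefSeq (GRCm38.p6), which gave 25 of the 30 tested genes a window. TATAAA was in 18 of 25 windows (72%), against 13.6% of all 32851 promoters of the table. CCAAT was in 22 of 25 (88%), against 37.4% of all, the octamer in 8 (32%), against 1.74%, and AAACACA in 8 (32%), against 7.18%. By type, AAACACA was in 4 of 5 H1, 2 of 9 H2A, 2 of 4 H2B, 0 of 2 H3 and 0 of 5 H4 windows. The octamer was in 5 of 9 H2A and 3 of 4 H2B windows, and in 0 of the H1, H3 and H4 windows.

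The 150 bases before the start are printed for the 5 H1 genes, for Hist1h4d and Hist1h2ab as low members of other types, and for Hist2h2ac, whose ratio was nearer to 0, with every match to the 4 motifs, on either strand, in capitals. Hist1h4f, the lowest H4 gene at -0.82, is not printed, and its 150 bases hold none of the 4 motifs in exact letters. They do hold the near variant TATATA shortly before the start. On the strand of the gene, the H1 promoters share their order of boxes, from AAACACA through CCAAT to TATAAA, except that Hist1h1a lacks AAACACA and Hist1h1c lacks TATAAA in these letters.
Hist1h1b (chr13:21780626-21780775, minus strand): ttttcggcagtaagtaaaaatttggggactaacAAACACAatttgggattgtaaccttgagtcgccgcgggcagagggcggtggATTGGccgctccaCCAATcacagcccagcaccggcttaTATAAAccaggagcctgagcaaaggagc
Hist1h1a (chr13:23763518-23763667, plus strand): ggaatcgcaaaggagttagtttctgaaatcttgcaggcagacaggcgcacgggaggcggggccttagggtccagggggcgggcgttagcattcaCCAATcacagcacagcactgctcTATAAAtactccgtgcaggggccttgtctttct
Hist1h1e (chr13:23622559-23622708, minus strand): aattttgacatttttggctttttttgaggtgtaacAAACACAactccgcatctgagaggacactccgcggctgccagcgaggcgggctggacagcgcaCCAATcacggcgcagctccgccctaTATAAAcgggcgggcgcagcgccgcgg
Hist1h1d (chr13:23554882-23555031, plus strand): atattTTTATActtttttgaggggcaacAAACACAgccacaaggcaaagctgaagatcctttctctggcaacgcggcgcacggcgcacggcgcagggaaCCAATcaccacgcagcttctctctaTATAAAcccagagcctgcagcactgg
Hist1h1c (chr13:23738657-23738806, plus strand): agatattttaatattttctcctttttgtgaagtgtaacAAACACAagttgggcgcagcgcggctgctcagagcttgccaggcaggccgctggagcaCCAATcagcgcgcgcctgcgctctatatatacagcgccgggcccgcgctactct
Hist1h4d (chr13:23581418-23581567, plus strand): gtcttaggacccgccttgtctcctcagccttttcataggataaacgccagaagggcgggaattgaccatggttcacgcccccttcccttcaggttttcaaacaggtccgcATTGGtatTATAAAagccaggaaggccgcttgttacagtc
Hist1h2ab (chr13:23750938-23751087, plus strand): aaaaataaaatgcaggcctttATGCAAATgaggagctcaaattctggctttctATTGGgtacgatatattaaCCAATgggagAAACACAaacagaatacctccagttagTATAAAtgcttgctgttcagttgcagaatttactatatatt
Hist2h2ac (chr3:96220881-96221030, minus strand): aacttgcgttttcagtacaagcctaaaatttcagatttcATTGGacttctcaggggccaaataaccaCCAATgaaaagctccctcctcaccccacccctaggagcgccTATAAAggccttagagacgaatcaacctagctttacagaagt

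The 18 tested histone genes with TATAAA in the window had a median log2 ratio of -0.42 and 6 were lower. The 7 without it had a median of 0.02 and 0 were lower, from Hist4h4 at -0.54 to Hist1h2ai at 0.39. With TATAAA counted only where it starts 20 to 45 bases before the gene, a range set after the values were known, 9 genes had a median of -0.73 and 3 were lower, and the other 16 had a median of -0.07 and 3 were lower. Both splits follow histone type in part. Hist1h1a, Hist1h1b, Hist1h1d and Hist1h1e were counted as with TATAAA in both, and only Hist1h1c of H1 as without. Where a probe shares letters with other histone genes, its ratio need not belong to a single promoter. Among the other tested genes of the array, 1001 had TATAAA in the window, with a median of 0.04, 3.7% lower and 3.2% higher. The 9473 without it had a median of 0.02, 2.45% lower and 1.94% higher. In the range of 20 to 45 bases, 199 other genes had TATAAA, with a median of 0.06, 5.53% lower and 4.52% higher. The 10275 without it there had a median of 0.02, 2.51% lower and 2.01% higher. The exact letters TATAAA leave out near variants. Hist1h1c, Hist1h2ai, Hist1h2bm, Hist3h2a and Hist4h4, all counted as without it, hold TATATA or ATATAA shortly before the start. Some matches in the wide window lie far from the usual place. That of Hist1h4f is 250 bases before the start, although the gene also holds TATATA shortly before it, and that of Hist1h4a lies after the start. The split is therefore not one of genes with and without a TATA box. A match is a description of the letters and not of TBP binding, and the difference between the histone genes was not tested.

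The genes that process and regulate histone mRNA moved little. Of 25 tested members, none passed (0 by limma; 3 higher and 2 lower at an unadjusted p under 0.05), with a median of -0.03. The sets differed for 1 of them (4%), Nfya, against 1.38% of all tested genes more positive in the age_matched set. Nfya had 0.44 in the age_matched set and -0.19 in the stage_matched set (difference, limma adjusted p = 0.0222). Its arrays overlapped between the sets. Slbp, which binds the stem-loop, had a mean of 0.07 ± 0.03 (SD, n = 2; limma adjusted p = 0.701). Npat, the S-phase coactivator of histone genes, had -0.37 ± 0.20 (SD, n = 2; limma adjusted p = 0.0856), Casp8ap2, its partner in the histone locus body, 0.05 ± 0.10, and Lsm11, of the U7 snRNP, -0.05 ± 0.04. Of 40 tested DNA replication genes, 30 had negative ratios but none passed (0 by limma; 0 higher and 10 lower at an unadjusted p under 0.05). Their median was -0.15, with -0.14 in the age_matched set and -0.12 in the stage_matched set. Of all 13587 tested genes, 1563 were higher and 1514 lower at that unadjusted p.

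Histone chaperones carry new histones to DNA, and 1 of 23 tested rose and 2 fell, with a median of -0.07. These are 4.35% and 8.7%, against 2.14% and 2.77% of all tested genes. Ubn1 fell by 0.59 ± 0.10 on the log2 scale (SD, n = 2; limma adjusted p = 0.0196) and Hira fell by 0.48 ± 0.17 (SD, n = 2; limma adjusted p = 0.0378). Both belong to the complex that deposits the replacement histone H3.3 outside S phase. Cabin1, of the same list, had -0.125 ± 0.05 and did not pass (SD, n = 2, limma adjusted p = 0.468). Nap1l1, a carrier of H2A and H2B, rose by 0.42 ± 0.02 (SD, n = 2; limma adjusted p = 0.0422). Chaf1a of the replication-coupled assembly factor had -0.24 ± 0.20, Asf1b -0.07 ± 0.08 and Nasp 0.09 ± 0.01, and none of the 3 passed.

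The replacement histones, whose mRNAs carry a poly(A) tail, had 2 of 12 tested genes lower, or 16.7%, against 2.77% of all tested genes. None of them was higher (0 by limma, 2 at an unadjusted p under 0.05), and their median was 0.02. Macroh2a1, named H2afy on the array, fell by 0.75 ± 0.35 on the log2 scale (SD, n = 2; limma adjusted p = 0.0219). Cenpa, the H3 variant of centromeres, fell by 0.67 ± 0.12 (SD, n = 2; limma adjusted p = 0.0148). H1f10, a linker histone gene outside the clusters that the array names H1fx, had 0.06 in the age_matched set and -0.90 in the stage_matched set (difference, limma adjusted p = 6.06e-05), the direction seen in the clustered H1 genes. H2az1, named H2afz on the array, had 0.03 ± 0.03 and H3f3b, which encodes H3.3, 0.32 ± 0.03 (SD, n = 2; limma adjusted p = 0.0891).

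**Figure D5:**
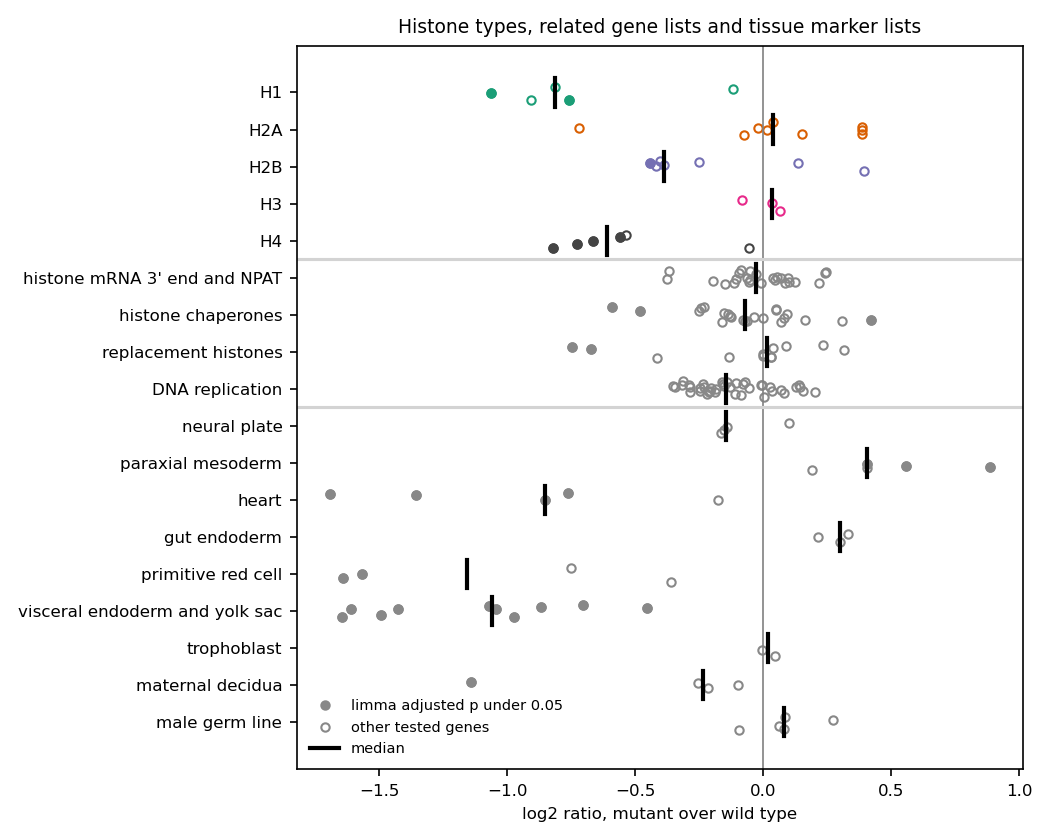
Log2 ratio of mutant over wild type (horizontal axis) of each tested gene, as the mean of both sets, for the 5 histone types, 4 related lists and 9 lists of tissue markers. Filled circles passed limma's adjusted threshold, open circles did not, and black bars are medians. Except Hist1h1c and Hist1h4i, the H1 and H4 genes lie left of the DNA replication genes, whose median was -0.15.

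Markers of other tissues moved in the same comparison. All 10 markers of visceral endoderm and yolk sac fell (10 of 10, median -1.06), with a summed signal of 21533 to 27133 in the mutant and 46965 to 79992 in wild type over the 4 arrays. Of 5 heart markers 4 fell (median -0.85, summed signal 37390 to 63997 in the mutant and 102859 to 152179 in wild type), and of 4 tested primitive red cell markers 2 fell (median -1.16, 2309 to 8080 in the mutant and 11697 to 21437 in wild type). Of 5 paraxial mesoderm markers 3 rose (median 0.41, 9640 to 14427 in the mutant and 6957 to 9831 in wild type). The neural plate (4 tested, median -0.15), gut endoderm (3, median 0.30) and trophoblast (2, median 0.02, with Gcm1 and Psg17 not above background) had 0 called. Of 4 tested genes listed for maternal decidua, 1 fell, Lyve1. Whether each listed gene marks decidua alone in these pools was not tested.

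The sets differed in these lists too. Heart markers had a median of -1.17 in the age_matched set and -0.53 in the stage_matched set, and primitive red cell markers -1.64 and -0.74, while H1 had -0.32 and -1.35. The visceral endoderm list had -1.07 in the age_matched set and -1.20 in the stage_matched set. Some genes of the decidua and trophoblast lists had the more negative ratio in the stage_matched set, as H1 did, and others did not. The decidua marker Prl8a2 had 0.51 in the age_matched set and -0.94 in the stage_matched set (difference, limma adjusted p = 2.74e-11), and the trophoblast marker Prl3d1 had 0.49 and -0.39 (difference, limma adjusted p = 0.000243). Lyve1, of the decidua list, went the other way, with -1.47 in the age_matched set and -0.81 in the stage_matched set (difference, limma adjusted p = 0.0149). So did Des, of the same list, with -0.53 and 0.02 (difference, limma adjusted p = 0.0731). The trophoblast marker Tfap2c hardly differed, with 0.03 and -0.04. The trophoblast median was 0.26 in the age_matched set and -0.22 in the stage_matched set, and that of maternal decidua -0.25 and -0.52. The male germ line markers, which bear on the testis gene Hist1h2ba, had 0 of 5 called and a median of 0.08. The part of tissue content in the histone ratios was not tested.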

How the data were processed

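Scanner files of 4 two-colour Agilent 4x44K arrays were used. Intensity per spot and dye was deposited without normalization, per the file headers. The authors' deposited log10 ratios are processed Cy5 over Cy3 with the sign turned on dye-exchanged arrays, per the file headers and a comparison with them (largest difference 5e-06). The submitters' processing notes name Feature Extraction 9.5.3, and the file headers give 10.5.1.1. From 300 ng of RNA per dye, 52.9% to 59.6% of spots were well above background, and the number of arrays limits the precision.

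With limma 3.58.1 (R 4.3.3), background was corrected by normexp (offset 50) and dye bias by loess, and control and marked spots were left out. The sign was turned on dye-exchanged arrays, and both arrays of a set were averaged. Probes well above background in 1 genotype's channel, either one, on each of the 4 arrays were tested (21940 of 41174). Mutant over wild type was fitted on the 2 set means (1 residual and 7.12 prior degrees of freedom, two-sided, Benjamini-Hochberg over all tested probes). For the sets, each array was a value, and the fit held set and dye. Both fits were tested on simulated data. The labels do not say that the sets are separate litters, so p-values measure the spread between these pools. Named in the text are all called members, the highest and lowest of each type, those whose sets differ and the 5 with the widest probe spread, while other members were chosen after their values were seen. Symbols come from the files or RefSeq (GRCm38.p6), and probe positions are mm9, per the file headers. The members and lists were chosen with earlier results of these data known.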

Additional observations from a re-analysis of the deposited data

Results flagged for a closer look

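The effect of the mutant differed between the age_matched and the stage_matched set by limma for 9 histone genes (difference of log2 ratios, age_matched minus stage_matched, n = 2 arrays per set). The difference was 1.17 for Hist1h1a, 1.16 for Hist1h1e, 0.62 for Hist1h1d and 0.58 for Hist1h1b, all H1 genes, with limma adjusted p of 2.17e-07, 3.97e-07, 0.0274 and 0.0449 in that order. It was 0.99 for the H2A gene Hist1h2ab (limma adjusted p = 2.21e-05). The H4 genes Hist1h4f and Hist4h4 differed by 0.61 each (limma adjusted p = 0.0296 and 0.0301) and Hist1h4d by 0.60 (limma adjusted p = 0.0374). Hist1h2ai, with -0.60, ran the other way (limma adjusted p = 0.0325). The error is technical, from arrays of the same pools, and Hist1h4f and Hist1h4d share 50 probe bases.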

How the results depend on the processing

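The count of lower histone genes was 7. It was 0 without background correction (14 at an unadjusted p under 0.05), 13 with median centring, 1 when dim probes were kept and 14 with the mean of all tested probes of a gene. Leaving out 1 array gave 0 to 7, with 0 without age_matched replicate 1 (14 at an unadjusted p under 0.05), 4 without age_matched replicate 2 and 7 without either stage_matched array. With alternatives chosen after the data were seen, it was 7 with the mutant in Cy5 only and 1 in Cy3 only. The count of higher genes was 0, but 1 with the authors' deposited ratios and with the mean of all probes (Hist3h2ba in both), and 7 with the mutant in Cy5 only. The median of the histone genes, -0.18, was -0.063 with the mutant in Cy5 only and -0.39 in Cy3 only, and between -0.27 and -0.08 under the other settings (-0.13 in the age_matched and -0.29 in the stage_matched set alone). Median centring moved the median of all tested probes to -0.07. The 9 genes whose sets differ became 0 without background correction, 0 with median centring, 2 with the deposited ratios and 0 without the dye term, the replicate block of this fit. Over all probes of the array, these settings called 0, 1, 150 and 0 in the same order. The cause of these changes was not tested.

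None of the 7 lower genes changed sign (0 of 7). Signs turned for genes near 0. Leaving out 1 array gave log2 ratios of -0.21 to 0.24 for Hist1h2af, -0.20 to 0.28 for Hist3h2a, -0.14 to 0.44 for Hist2h2ac, -0.19 to 0.027 for Hist1h3a and -0.034 to 0.17 for Hist1h3d. With the mutant in Cy5 only the ratio was 0.054 for Hist1h1c and 0.030 for Hist1h4i. With the mutant in Cy3 only it was -0.34 for Hist1h2af, -0.42 for Hist3h2a, -0.34 for Hist2h2ac, 0.0091 for Hist1h3a and -0.13 for Hist1h3d. With 2 sets of pools and 1 residual degree of freedom, calls lean on the spread that limma borrows from all probes, and signal over background limits the dim probes outside the coding sequence.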
